A study of Mus musculus with 6 samples.

Results

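Receptors for prostaglandins, bradykinin and proteases were described in sorted cells of the mouse dorsal root ganglion, through 10 genes: the prostaglandin E2 receptor genes Ptger1 to Ptger4 (EP1 to EP4), the prostacyclin receptor gene Ptgir, the bradykinin receptor genes Bdkrb1 and Bdkrb2, and the protease-activated receptor genes F2r (PAR1), F2rl1 (PAR2) and F2rl2 (PAR3). They were chosen by symbol as receptors through which inflammatory mediators sensitize nociceptors, and all 10 were found among the 23029 genes listed. RNA came from mice of genotype GINIP+/mcherry, in which a fluorescent reporter marks cells that use the gene of GINIP, and cells were also stained with the lectin IB4. DP cells carried both marks (IB4+GINIP+) and are labelled as Mrgprd+ neurons, C-LTMR cells were IB4-GINIP+, C-fibre low-threshold mechanoreceptors by their label, and the DN gate (IB4-GINIP-) took all other cells. Each subset had 2 libraries, numbered replicate 1 and replicate 2, and all 6 carry the reporter allele. Whether the replicates are separate animals is not in the labels, and p-values therefore speak only to the spread among these libraries, which may be technical. Age, sex and the number of animals are not in the labels either.

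All of these receptors are G protein-coupled. EP2, EP4 and the prostacyclin receptor raise cyclic AMP through the stimulatory G protein, EP3 mostly lowers it through inhibitory G proteins, and EP1 and both bradykinin receptors act mainly through Gq and phospholipase C. Protease-activated receptors carry their own ligand, which a protease such as thrombin (PAR1, PAR3) or trypsin and tryptase (PAR2) unmasks by cutting the amino-terminal tail. Mouse PAR3 is known chiefly as a cofactor for other thrombin receptors. In sensory neurons, protein kinases A and C lower the threshold of channels such as TRPV1 and Nav1.8. They act downstream of receptors that raise cyclic AMP or work through Gq, which does not cover EP3 or PAR3 as described here.

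Values are RPKM, reads per kilobase of gene scaled to library size, so that levels can be compared between genes. Depth, estimated from the steps between low RPKM values, ran from 32.0 to 41.6 M reads per library. The subsets carried the markers of their labels, and other cells as well. Summed over 6 Mrgprd nociceptor markers, the level was 1572 and 1601 RPKM in DP, 544 and 499 in C-LTMR, against 7.09 and 13.8 in DN. In C-LTMR most of that sum was Tmem45b (444 and 408 RPKM) and Grik1 (94.0 and 84.7). Mrgprd itself was at 1.32 and 2.01 RPKM in C-LTMR, against 220 and 277 in DP. Summed over 5 C-LTMR markers, the level was 76.7 and 88.1 RPKM in DP, 1304 and 1306 in C-LTMR, against 35.5 and 17.2 in DN. DN held the peptidergic nociceptor markers (915 and 814 RPKM in DP, 1317 and 1234 in C-LTMR, 8660 and 7851 in DN), but also endothelial markers (7 of 7 at 0.5 RPKM or more), satellite glia markers and fibroblast markers, although its label names it sensory neurons. DP held neutrophil markers, 236 and 267 RPKM over 7 genes, while the sum was 0.253 and 0.207 RPKM in C-LTMR, against 42.4 and 76.2 in DN. The sum over 7 itch neuron markers was highest in C-LTMR, at 272 and 199 RPKM, with 49.4 and 36.3 in DP, against 11.1 and 9.64 in DN. Most of the C-LTMR sum was Mrgpra3, a receptor gene of itch neurons, at 259 and 190 RPKM. The list as a whole did not go with C-LTMR. By the call criteria given below, 5 of the 7 were higher in DP than in C-LTMR and 2 lower. Only Mrgpra3 was called higher in C-LTMR than in DN. In bulk samples like these, fewer cells of a type and less RNA per cell cannot be told apart.

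**Figure D1:**
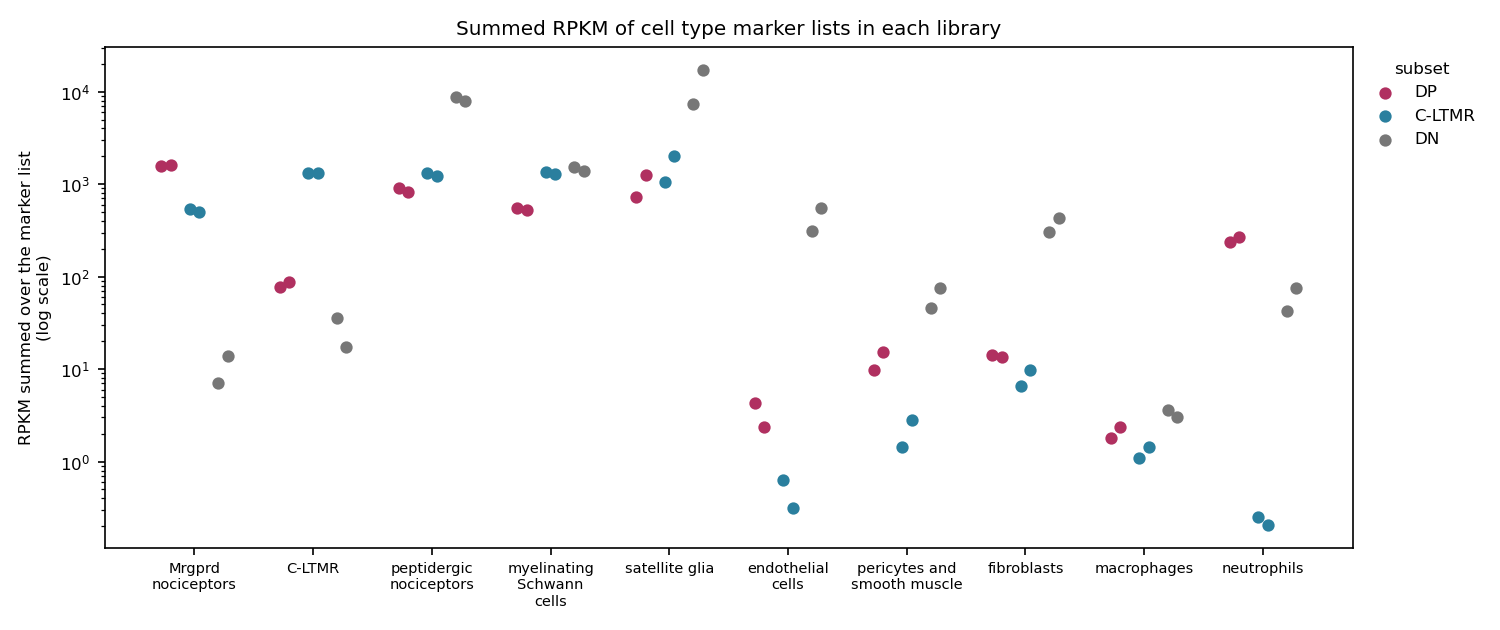
RPKM summed over each marker list (y axis, log scale) for 10 cell types (x axis), with a point for each library, in the order DP, C-LTMR, DN. The DN libraries carried the highest sums of peptidergic, satellite glia, endothelial, pericyte and fibroblast markers, and the DP libraries those of Mrgprd nociceptor and neutrophil markers.

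The receptors spanned more than 3 orders of level. F2rl2 was by far the highest, with a mean over the 6 libraries of 51.9 RPKM, above 92.7% of all genes listed. Next came Ptger1 (11.4 RPKM), Ptgir (8.72), Ptger4 (5.66), Ptger3 (2.99), Ptger2 (1.68) and F2r (0.973). Bdkrb2 (0.1 RPKM), Bdkrb1 (0.0403) and F2rl1 (0.0342) were lowest, with about 30% of all genes below them (30.1% for Bdkrb1 and 29.3% for F2rl1). F2rl2 alone made up 81.6% and 76.4% of the RPKM summed over the 10 genes in DP, 56.5% and 56.0% in C-LTMR, against 50.1% and 48.0% in DN.

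**Figure D2:**
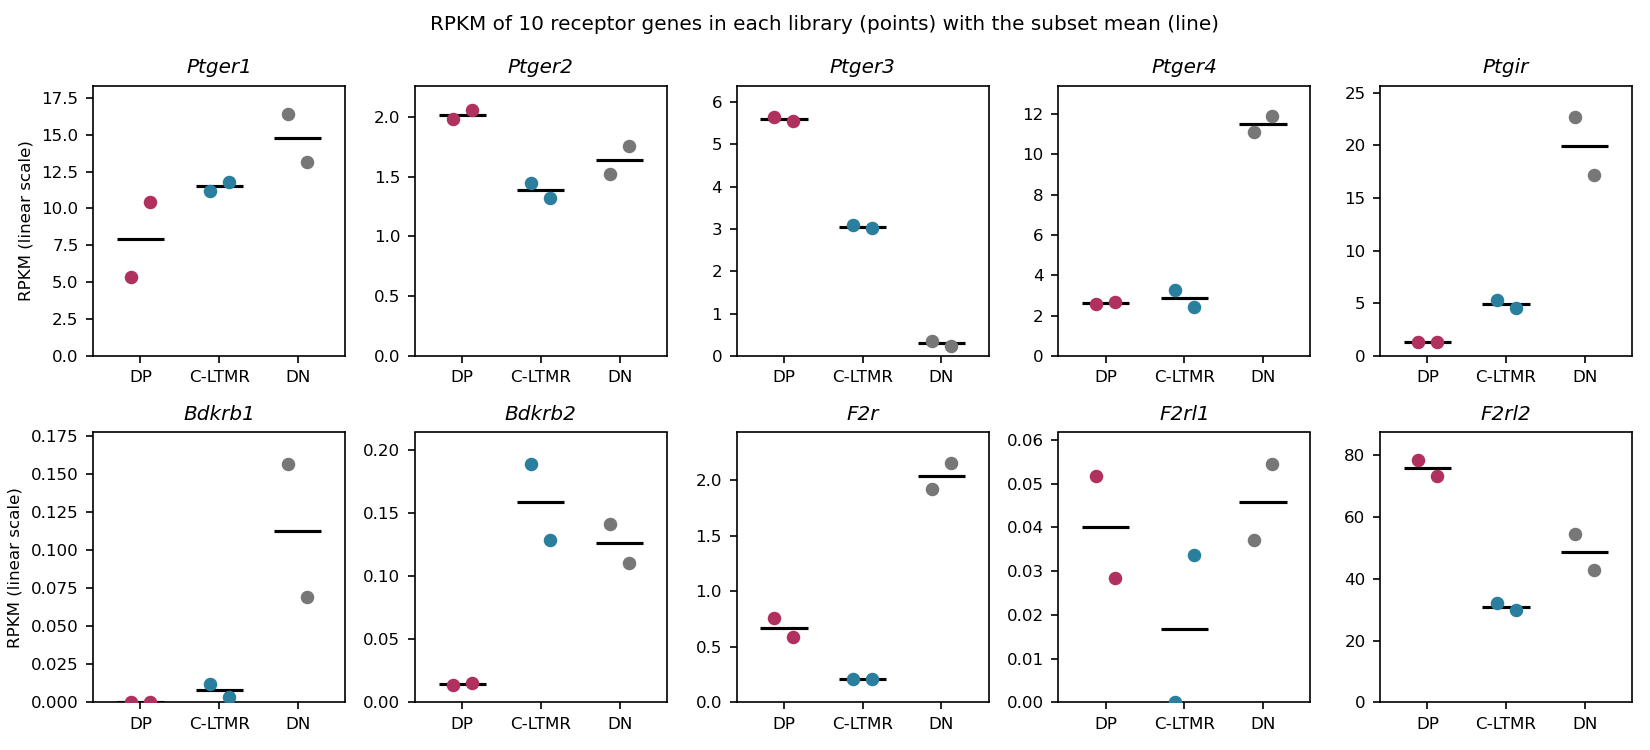
RPKM (y axis, linear and on its own scale in each panel) of the 10 receptor genes in DP, C-LTMR and DN (x axis), with a point for each of 2 libraries and a line at their mean. Ptger3 and F2rl2 were highest in DP, Ptger4, Ptgir and F2r were highest in DN, and Bdkrb1, Bdkrb2 and F2rl1 stayed under 0.2 RPKM in every library.

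Differences were tested with limma on log2(RPKM + 0.5) over the 13478 genes with at least 0.5 RPKM in at least 2 libraries. Calls needed both a log2 fold change of 1 or more in size and a p under 0.05 after Benjamini-Hochberg (BH) adjustment over all genes tested. Fold changes on this scale are understated for low genes. The filter kept 7 receptors, each of them through both libraries of at least 2 subsets, and left out Bdkrb1, Bdkrb2 and F2rl1. Between DP and C-LTMR, F2rl2 was called higher and Ptgir lower, 2 of 7, where 11.3% of all genes tested were called in either direction (4.56% higher and 6.77% lower). Between DP and DN, Ptger3 was called higher and Ptger4, Ptgir and F2r lower, 4 of 7, against 28.0% of all genes (6.57% higher and 21.4% lower). Between C-LTMR and DN, 1 receptor was called higher (Ptger3) and 3 lower (Ptger4, Ptgir and F2r), against 27.1% of all genes (7.26% higher and 19.8% lower). The last 2 comparisons share the DN libraries and are not separate evidence.

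**Figure D3:**
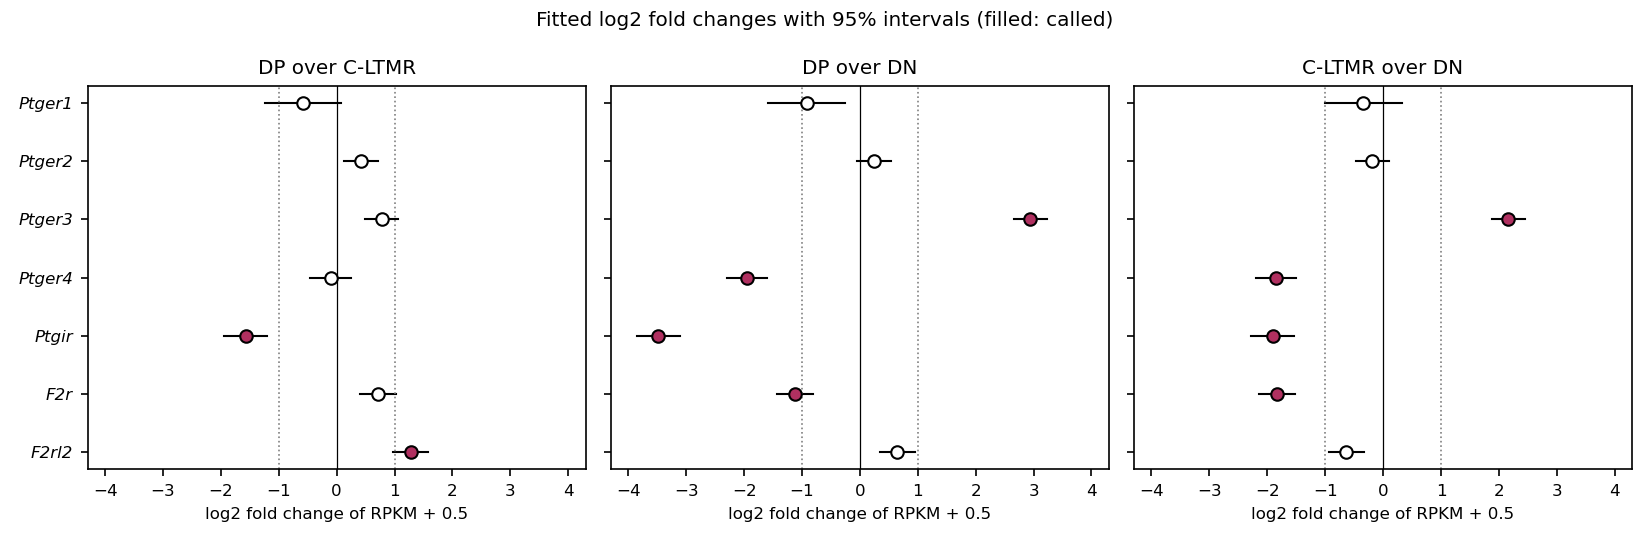
Fitted log2 fold changes of RPKM + 0.5 (x axis) with 95% intervals for the 7 receptors tested (y axis), in a panel for each comparison. Filled points were called, and dotted lines mark a log2 fold change of 1 in either direction. Ptger3 lies right of these lines and Ptger4, Ptgir and F2r left of them in both comparisons with DN.

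The stretches before the start sites of the 5 receptors called in a comparison are shown to set the receptors that were higher in DP beside those that were higher in DN. They are the 250 bases upstream of the RefSeq start, 5′ to 3′ on the gene's strand (GRCm38.p6), in lower case with motif matches in capitals. RefSeq windows were matched for 7 of the 10 genes.
Ptger3, chr3:157566626-157566875, + strand: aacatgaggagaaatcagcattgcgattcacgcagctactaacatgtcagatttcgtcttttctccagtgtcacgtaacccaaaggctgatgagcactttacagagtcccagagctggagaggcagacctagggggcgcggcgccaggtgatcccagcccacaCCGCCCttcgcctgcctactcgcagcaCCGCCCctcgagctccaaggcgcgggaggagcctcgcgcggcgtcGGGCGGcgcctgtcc
F2rl2, chr13:95696670-95696919, + strand: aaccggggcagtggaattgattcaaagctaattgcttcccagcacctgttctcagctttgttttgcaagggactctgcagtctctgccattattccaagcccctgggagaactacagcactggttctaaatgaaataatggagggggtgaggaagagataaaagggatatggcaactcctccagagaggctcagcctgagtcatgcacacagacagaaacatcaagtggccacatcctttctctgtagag
Ptger4, chr15:5244188-5244437, - strand: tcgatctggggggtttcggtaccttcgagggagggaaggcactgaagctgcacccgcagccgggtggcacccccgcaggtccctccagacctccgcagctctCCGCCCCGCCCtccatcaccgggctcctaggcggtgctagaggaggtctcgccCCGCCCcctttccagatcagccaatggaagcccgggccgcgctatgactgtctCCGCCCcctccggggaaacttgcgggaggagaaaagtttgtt
Ptgir, chr7:16906240-16906489, + strand: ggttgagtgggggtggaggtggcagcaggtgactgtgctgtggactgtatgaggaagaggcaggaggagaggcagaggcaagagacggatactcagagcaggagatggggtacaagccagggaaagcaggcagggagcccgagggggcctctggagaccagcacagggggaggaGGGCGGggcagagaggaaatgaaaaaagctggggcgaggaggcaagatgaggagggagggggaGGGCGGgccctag
F2r, chr13:95618467-95618716, - strand: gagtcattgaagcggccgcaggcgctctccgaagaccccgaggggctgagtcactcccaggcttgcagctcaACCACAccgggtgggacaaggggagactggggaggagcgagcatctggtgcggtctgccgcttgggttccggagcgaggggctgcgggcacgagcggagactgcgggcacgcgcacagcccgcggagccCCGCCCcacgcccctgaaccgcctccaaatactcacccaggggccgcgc

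Motifs searched on both strands were the GC box GGGCGG (in 32.7% of 32851 upstream windows of all genes), the RUNX core TGTGGT (14.1%), the half-site TGACG of the cyclic AMP response element (17.8%), the TATA box TATAAA (12.4%) and the homeodomain core TAATTA (4.84%). Ptger3 held 3 GC boxes, Ptger4 held 4, of which 2 overlap, Ptgir held 2, and F2r held 1 along with 1 RUNX core. F2rl2 held none of these letters, and with 48.4% G and C and 1 CpG it was the poorest of the 5 in both, against 62.0% for Ptger3, 66.8% for Ptger4, 63.6% for Ptgir and 70.8% for F2r. The median over all windows was 52.4% G and C and 6 CpG. These matches describe letters in the windows and are not evidence of binding.

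Ptger3, the gene of the inhibitory receptor EP3, marked the GINIP+ subsets. It was at 5.64 and 5.56 RPKM in DP, at 3.10 and 3.02 in C-LTMR, and at 0.344 and 0.246 in DN. The 3 subsets did not overlap, and the order was DP, then C-LTMR, then DN. The mean in DP was 19.0-fold that in DN (2.94 on the log2 scale, SE 0.12, limma BH-adjusted p = 6.63e-06), and the mean in C-LTMR 10.4-fold that in DN (2.17, SE 0.12, limma BH-adjusted p = 1.77e-05). DP was 1.83-fold over C-LTMR, which passed on p but not on the fold criterion (log2 fold change 0.78, limma BH-adjusted p = 0.00358). The DN value rested on about 60.5 and 35.8 reads, from RPKM, exonic length and estimated depth. Both calls against DN held in all 16 alternatives run.

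Ptger4, the gene of EP4, was at 2.55 and 2.65 RPKM in DP, at 3.29 and 2.45 in C-LTMR, and at 11.1 and 11.9 in DN. DP and C-LTMR overlapped, and both lay below DN. The mean was 4.42-fold lower in DP than in DN (-1.95 on the log2 scale, SE 0.14, limma BH-adjusted p = 5.75e-05) and 4.02-fold lower in C-LTMR than in DN (-1.85, SE 0.14, limma BH-adjusted p = 7.31e-05). Between DP and C-LTMR the log2 fold change was -0.11 (95% interval -0.45 to 0.24, limma BH-adjusted p = 0.64), and its sign changed under quantile normalization, under rescaling to genes of all sensory neurons and in the absence of C-LTMR replicate 1.

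Ptgir, the prostacyclin receptor gene, was graded over the subsets. It was at 1.30 and 1.33 RPKM in DP, at 5.28 and 4.53 in C-LTMR, and at 22.7 and 17.2 in DN. No subset overlapped another, with DP lowest and DN highest. Its mean was 15.2-fold lower in DP than in DN (-3.48 on the log2 scale, SE 0.16, limma BH-adjusted p = 8.68e-06), 3.73-fold lower in DP than in C-LTMR (-1.57, SE 0.16, limma BH-adjusted p = 0.000494) and 4.06-fold lower in C-LTMR than in DN (-1.91, SE 0.16, limma BH-adjusted p = 8.51e-05). It was the only receptor of the 7 called in all 3 comparisons, and these calls held in the 17 alternatives run.

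Marker sums of several other cell types were, like Ptger4 and Ptgir, highest in DN. The endothelial sum (7 of 7 markers listed, none at 0) was 4.27 and 2.34 RPKM in DP, 0.628 and 0.318 in C-LTMR, against 313 and 548 in DN. The satellite glia sum (7 of 7, none at 0) was 734 and 1247 RPKM in DP, 1045 and 2005 in C-LTMR, against 7434 and 17260 in DN. The peptidergic nociceptor sum was 915 and 814 RPKM in DP, 1317 and 1234 in C-LTMR, against 8660 and 7851 in DN. Its order was that of Ptgir. The endothelial sum was higher in DP than in C-LTMR, the reverse of Ptgir. The part of these cells in the levels of Ptger4 and Ptgir was not tested. Under a rescaling of the libraries to genes that all sensory neurons use, log2 fold changes over DN were -2.29 (DP) and -2.29 (C-LTMR) for Ptger4 and -3.81 (DP) and -2.37 (C-LTMR) for Ptgir. This rescaling does not take out RNA of other cells. Some of its 17 genes also differed between subsets, with 3 called higher and 2 lower in DP over DN, and 4 higher and 1 lower in C-LTMR over DN.

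Ptger1, the gene of EP1, was at 5.37 and 10.4 RPKM in DP, at 11.2 and 11.8 in C-LTMR, and at 16.4 and 13.1 in DN. The subset ranges did not overlap, but DP replicate 2 stood close to C-LTMR and far from DP replicate 1, and no comparison was called. The log2 fold change was -0.58 for DP over C-LTMR (95% interval -1.24 to 0.08, limma BH-adjusted p = 0.166), -0.92 for DP over DN (limma BH-adjusted p = 0.0247) and -0.34 for C-LTMR over DN (95% interval -0.998 to 0.32, limma BH-adjusted p = 0.326). DP replicate 2 decided this: without it, Ptger1 was called lower in DP than in C-LTMR (-1.03, limma BH-adjusted p = 0.0129) and than in DN (-1.37, limma BH-adjusted p = 0.00193), and rescaling to pan-sensory-neuron genes also gave a call for DP over DN (-1.27, limma BH-adjusted p = 0.004).

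Ptger2, the gene of EP2, differed little between subsets in the unscaled RPKM values. It was at 1.99 and 2.06 RPKM in DP, at 1.45 and 1.32 in C-LTMR, and at 1.52 and 1.76 in DN. The DP libraries were highest and the other 2 subsets did not overlap each other. The log2 fold change was 0.42 for DP over C-LTMR (95% interval 0.13 to 0.71, limma BH-adjusted p = 0.0426), short of the fold criterion, 0.24 for DP over DN (-0.06 to 0.53, limma BH-adjusted p = 0.136) and -0.18 for C-LTMR over DN (-0.48 to 0.11, limma BH-adjusted p = 0.238). These values depended on the scaling: under quantile normalization DP over DN was 0.87 (limma BH-adjusted p = 0.00106) and C-LTMR over DN 0.36, and under rescaling to genes of all sensory neurons DP over DN was -0.05 and C-LTMR over DN -0.56, none of them called.

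The shares of the EP receptor transcripts differed between subsets. Ptger1, with the replicate spread given above, made up 34.5% and 50.4% of the RPKM summed over the 4 EP genes in DP, 58.9% and 63.4% in C-LTMR, against 55.8% and 48.5% in DN. Ptger3 made up 36.3% and 26.9% of the same sum in DP, 16.3% and 16.3% in C-LTMR, against 1.17% and 0.909% in DN. Ptger4 made up 16.4% and 12.8% in DP, 17.3% and 13.2% in C-LTMR, against 37.8% and 44.1% in DN. The ratio of Ptger3 to Ptger4 was 2.21 and 2.10 in DP, 0.942 and 1.24 in C-LTMR, against 0.0309 and 0.0206 in DN. Of the 10 genes, Ptger2, Ptger4 and Ptgir, whose receptors couple to the stimulatory G protein, summed to 5.84 and 6.04 RPKM in DP, 10.01 and 8.30 in C-LTMR, against 35.3 and 30.9 in DN. This sum does not cover all prostanoid receptors of that kind. It leaves out Ptgdr, described below, which had the opposite order, at 35.1 and 35.3 RPKM in DP, 14.4 and 13.7 in C-LTMR, against 7.09 and 6.88 in DN. These sums and shares restate the levels above and were not tested.

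**Figure D4:**
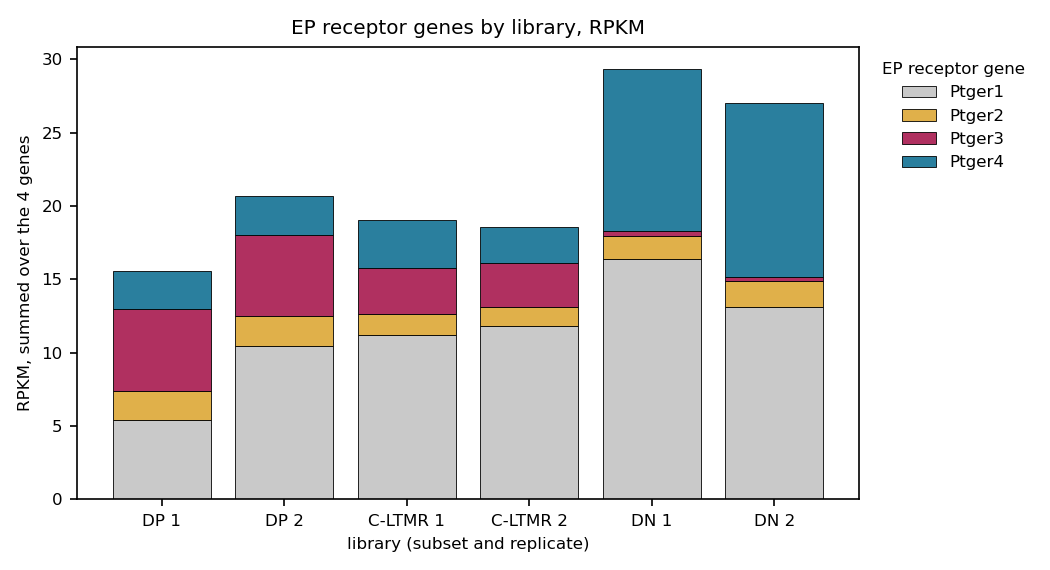
RPKM of the 4 EP receptor genes, stacked (y axis, from 0), in each library (x axis). Ptger3 takes 36.3% and 26.9% of the stack in DP and 1.17% and 0.909% in DN, while Ptger4 is the second largest part in DN.

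F2rl2, the gene of PAR3, was at 78.5 and 73.2 RPKM in DP, at 32.1 and 29.9 in C-LTMR, and at 54.5 and 43.0 in DN. The subsets did not overlap, and DP was highest, for the receptor whose upstream window, printed above, had the fewest CpG of the 5. DP was 2.45-fold over C-LTMR (1.28 on the log2 scale, SE 0.13, limma BH-adjusted p = 0.000487), and this call held in all 17 alternatives run. DP was 1.56-fold over DN (0.64, limma BH-adjusted p = 0.00422), which passed on p in this fit but not on fold, and C-LTMR over DN gave -0.63 (limma BH-adjusted p = 0.00471). With libraries rescaled to pan-sensory-neuron genes, C-LTMR over DN was called (-1.12, limma BH-adjusted p = 0.000203) and DP over DN did not pass on p either (0.28, limma BH-adjusted p = 0.0747). In the authors' deposited TMM-normalized table, F2rl2 had 7117 and 6542 normalized counts in DP, 2789 and 2608 in C-LTMR, against 4800 and 3996 in DN. The gene lies inside the span of Iqgap2 on the opposite strand, with 0 exonic bases shared, and Iqgap2 was at 0.445 and 0.413 RPKM in DP, 0.171 and 0.242 in C-LTMR, against 1.10 and 1.28 in DN.

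F2r, the gene of the thrombin receptor PAR1, was low in all subsets. It was at 0.757 and 0.586 RPKM in DP, at 0.213 and 0.207 in C-LTMR, and at 1.92 and 2.15 in DN, with no overlap between subsets. C-LTMR was 9.71-fold below DN (-1.84 on the log2 scale, SE 0.13, limma BH-adjusted p = 5.1e-05). DP was 3.03-fold below DN (-1.12, SE 0.13, limma BH-adjusted p = 0.000416), but fell short of the fold criterion with a pseudocount of 1 (-0.86) and with quantile normalization (-0.49). DP was 3.20-fold over C-LTMR on linear means, with a log2 fold change of 0.72 (limma BH-adjusted p = 0.00711) that reached 1.31 and a call with a pseudocount of 0.1. In C-LTMR the level stood for about 23.7 and 22.0 reads. Fibroblast markers (6 of 6 listed, none at 0) summed to 14.4 and 13.6 RPKM in DP, 6.63 and 9.74 in C-LTMR, against 302 and 432 in DN, and endothelial markers were as given above. The part of these cells in the level of F2r was not tested.

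F2rl1, the gene of PAR2, was at 0.0516 and 0.0284 RPKM in DP, at 0 and 0.0337 in C-LTMR, and at 0.0372 and 0.0544 in DN. A floor of 3 reads corresponds to 0.0263 and 0.0284 RPKM in DP, 0.0323 and 0.0337 in C-LTMR, against 0.0284 and 0.0342 in DN, so every library was at or within a few reads of it. No difference was detectable at this depth, and the gene was not tested. The 3 PAR genes lie together on chromosome 13, within 191 kb of GRCm38 as listed (F2rl1 from 95511730 to 95525240, F2r from 95601789 to 95618433 and F2rl2 from 95696920 to 95702768). The lowest and the highest of the 10 receptors thus lie in the same cluster, with F2r between them.

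The bradykinin receptor genes were near the floor. Bdkrb2, the gene of the B2 receptor that is found in resting tissue, was at 0.0142 and 0.0155 RPKM in DP, at 0.189 and 0.129 in C-LTMR, and at 0.142 and 0.111 in DN. Both DP libraries were under their floors of 0.0444 and 0.0479 RPKM, with about 1 read each (0.957 and 0.973), while C-LTMR stood on about 10.4 and 6.82 reads and DN on 8.89 and 5.76. Bdkrb1, the gene of the B1 receptor that inflammation induces, was listed at 0 in both DP libraries, at 0.0122 and 0.0037 RPKM in C-LTMR, and at 0.156 and 0.0695 in DN. Only DN replicate 1, with about 8.08 reads, was above its floor. The C-LTMR values of Bdkrb1 convert to about 0.555 and 0.161 reads, under 1 read, so that its read numbers and floors are rough. With no filter on low values, the pseudocount of 0.5 keeps fold changes at these levels under the fold criterion, so that no call was possible for Bdkrb1, Bdkrb2 or F2rl1. On p alone, Bdkrb2 passed in DP over C-LTMR (log2 fold change -0.36, limma BH-adjusted p = 0.012) and in DP over DN (-0.28, limma BH-adjusted p = 0.0111), and Bdkrb1 passed in DP over DN (-0.29, limma BH-adjusted p = 0.0195) and for C-LTMR against DN (-0.27 with limma, BH-adjusted p = 0.0264), all on about 10 reads or fewer per library. Both genes lie within 42.3 kb on chromosome 12 (Bdkrb2 from 105563172 to 105593071 and Bdkrb1 from 105604091 to 105605428).

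Genes whose profile over the 6 libraries was nearest to a receptor's were found by the root mean square difference of centred log2(RPKM + 0.5) values. For Ptger3 they included Txn1, the thioredoxin gene (difference 0.11), and 2700090O03Rik (0.169). Txn1 averaged 3486 RPKM in DP, 1828 in C-LTMR, against 412 in DN, a far higher level. Its linear ratios over DN were smaller than those of Ptger3, and the likeness holds on the log2(RPKM + 0.5) scale, which compresses the low values of Ptger3 in DN. For Ptgir they were Mad2l2 (0.112), A730017C20Rik (0.177) and Cidea (0.185). For F2rl2 they were Fam18a (0.0555), Rtkn (0.0865) and Lyplal1 (0.0895), for Ptger4 they were 4933412E12Rik (0.0467), Rgs20 (0.0529) and Nck2 (0.0754), and for F2r they were Col16a1 (0.0739), Snord72 (0.0817) and Dennd1a (0.0919). Only 8 genes lay within 0.25 of Ptgir and 14 within 0.25 of Ptger3, against 147 for F2rl2, 223 for F2r and 331 for Ptger4.

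The counts of related lists that follow stand beside 11.3% of all genes tested called in DP over C-LTMR, 28.0% in DP over DN and 27.1% in C-LTMR over DN. Among the other prostanoid receptors and PAR4, Ptgdr, the gene of the prostaglandin D2 receptor DP1, went with the DP cells. It was at 35.1 and 35.3 RPKM in DP, at 14.4 and 13.7 in C-LTMR, and at 7.09 and 6.88 in DN, and was called higher in DP than in C-LTMR (log2 fold change 1.29, limma BH-adjusted p = 0.000102) and than in DN (2.25, limma BH-adjusted p = 5.6e-06). At these levels Ptgdr exceeded every receptor of the 10 except F2rl2 in DP and in C-LTMR. Tbxa2r, the thromboxane receptor gene, was at 0.334 and 0.367 RPKM in DP, 0.168 and 0.403 in C-LTMR, against 4.55 and 3.50 in DN, and was called lower in DP and in C-LTMR than in DN (log2 fold changes -2.40 and -2.53). F2rl3, the gene of PAR4, averaged 1.59 ± 0.305 RPKM in DP, 1.17 ± 0.181 in C-LTMR, against 0.596 ± 0.146 in DN (SD, n = 2 each) and was not called, with a log2 fold change of 0.93 for DP over DN. That value reached a call with a pseudocount of 0.1 (1.29) and with quantile normalization (1.65), among other alternatives.

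Several genes of prostanoid synthesis, among them Ptgs2 and Ptgis, were lower in DP and in C-LTMR than in DN, while the E synthase genes Ptges3 and Ptges2 were not. Of 16 genes for prostanoid synthesis, transport and breakdown, 14 were tested. In DP over DN 0 were called higher and 8 lower, with a median log2 fold change of -1.84 against -0.15 over all genes tested. In C-LTMR over DN 0 were higher and 10 lower (median -1.74 against -0.06), and in DP over C-LTMR 1 was higher and 0 lower (0.11 against -0.04). Ptgs2, the gene of the inducible cyclooxygenase COX-2, averaged 0.098 ± 0.0318 RPKM in DP, 0.0183 ± 0.00588 in C-LTMR, against 3.05 ± 0.225 in DN (SD, n = 2 each). Ptgis, the prostacyclin synthase gene, averaged 0.259 ± 0.085 RPKM in DP, 0.146 ± 0.00557 in C-LTMR, against 6.16 ± 1.23 in DN, a log2 fold change of -3.13 for DP over DN (limma BH-adjusted p = 1.5e-05). Ptgds and Ptges, genes of prostaglandin D and E synthases, were also lower in DP than in DN (-3.59 and -2.68). Ptges3 (153 ± 0.361 RPKM in DP, 146 ± 9.70 in C-LTMR, against 138 ± 2.26 in DN) and Cbr1 were the highest of the list and were not called. Ptges2 averaged 23.4 ± 0.0624 RPKM in DP, 33.7 ± 0.0985 in C-LTMR, against 23.1 ± 1.87 in DN, and was higher in C-LTMR than in DN on p but not on the fold criterion (log2 fold change 0.54, limma BH-adjusted p = 0.00214). Hpgd, whose enzyme inactivates prostaglandins, was the gene called between DP and C-LTMR, a call that was lost when DP replicate 2 (limma BH-adjusted p = 0.0699), C-LTMR replicate 1 (0.0773) or C-LTMR replicate 2 (0.0625) was taken out. Endothelial, glial and fibroblast markers were also higher in DN, as given above, and their part in these differences was not tested.

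Of 13 genes for kinin release and breakdown 4 were tested, with 1 higher and 0 lower in DP over C-LTMR (median 0.21, against -0.04 over all genes tested), 1 higher and 1 lower in DP over DN (0.31 against -0.15) and 1 higher and 1 lower in C-LTMR over DN (0.10 against -0.06). Of the genes not tested, the kininogen gene Kng1 was listed at 0 in all libraries. Cpn1, which encodes the catalytic subunit of a carboxypeptidase that trims kinins, was at 12.5 and 14.3 RPKM in DP, 6.29 and 4.98 in C-LTMR, against 1.26 and 0.351 in DN. It was called higher in DP and in C-LTMR than in DN (log2 fold changes 3.50 and 2.32). Its call in DP over C-LTMR (1.18, limma BH-adjusted p = 0.0332) was lost without each DP or C-LTMR library in turn, with adjusted p between 0.0833 and 0.162. Mme, the neprilysin gene, averaged 0.0327 ± 0.0146 RPKM in DP, 0.0367 ± 0.0243 in C-LTMR, against 0.849 ± 0.0873 in DN and was called lower in DP and in C-LTMR, calls lost with a pseudocount of 1 and with quantile normalization.

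Of 27 genes of proteases that cut these receptors, their inhibitors and cofactors, 13 were tested. In DP over C-LTMR 4 were called higher and 1 lower (median 0.23 against -0.04 over all genes tested), in DP over DN 4 higher and 7 lower (-1.66 against -0.15), and in C-LTMR over DN 0 higher and 9 lower (-1.83 against -0.06). The kallikrein genes Klk5 and Klk8, which encode secreted serine proteases, stood out in DP. Klk5 was at 16.0 and 15.1 RPKM in DP, at 0.731 and 0.4 in C-LTMR, and at 0.0621 and 0.05 in DN (log2 fold changes 3.93 over C-LTMR and 4.85 over DN). Klk8 was at 10.5 and 11.1 RPKM in DP, at 0 and 0.0234 in C-LTMR, and at 0.582 and 0.656 in DN (4.47 and 3.34). Ctss, the cathepsin S gene, was at 1.12 and 1.31 RPKM in DP, listed at 0 in both C-LTMR libraries and at 0.642 and 0.662 in DN. Neutrophil markers have the same order over the subsets as Ctss and Klk8, as given above, and their part was not tested. Genes lower in DP and in C-LTMR than in DN included Thbd, the thrombomodulin gene (3.24 ± 0.029 RPKM in DP, 8.16 ± 0.997 in C-LTMR, against 50.6 ± 8.87 in DN), the protease inhibitor gene Spint2 (1.06 ± 0.0267, 1.198 ± 0.437 and 24.9 ± 3.24 RPKM in DP, C-LTMR and DN) and Serpine2, which encodes a thrombin inhibitor.

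Signalling genes under the receptors changed in both directions. Of 46 genes of G proteins, phospholipase C, adenylyl cyclases and kinases A and C, 43 were tested, with 7 higher and 6 lower in DP over C-LTMR, 10 higher and 8 lower in DP over DN, and 9 higher and 8 lower in C-LTMR over DN. The list medians were 0.03, 0.06 and 0.11 in these comparisons, against -0.04, -0.15 and -0.06 over all genes tested. Gnaq, the Gq alpha gene, averaged 290 ± 12.6 RPKM in DP, 114 ± 0.163 in C-LTMR, against 79.2 ± 3.72 in DN, a log2 fold change of 1.35 over C-LTMR and 1.87 over DN. Gnas, the stimulatory alpha gene, averaged 417 ± 9.27 RPKM in DP, 376 ± 0.469 in C-LTMR, against 528 ± 27.1 in DN and was not called. The protein kinase C genes Prkcq and Prkca were higher in DP than in C-LTMR (5.66 and 2.42) and than in DN (5.87 and 4.41), while the adenylyl cyclase gene Adcy2 was lower in DP and in C-LTMR than in DN (-3.37 and -3.02). The cyclase gene Adcy1 was lower in DP than in C-LTMR (-2.72).

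Of 18 channel genes that these pathways are known to modulate, 15 were listed and 13 tested. In DP over C-LTMR 4 were higher and 4 lower, in DP over DN 5 higher and 3 lower, and in C-LTMR over DN 4 higher and 3 lower, the last count of 7 dropping to 4 without DN replicate 2. The list medians were -0.23, -0.60 and 0.86 in these comparisons, against -0.04, -0.15 and -0.06 over all genes tested. Trpv1, the capsaicin receptor gene, averaged 6.77 ± 0.846 RPKM in DP, 10.4 ± 2.74 in C-LTMR, against 50.6 ± 18.6 in DN (log2 fold changes -2.77 and -2.21 over DN), highest in DN like Ptger4 and Ptgir. The ATP receptor gene P2rx3 was highest in DP (151 ± 7.69 RPKM in DP, 30.9 ± 1.73 in C-LTMR, against 17.0 ± 1.13 in DN), and so was Trpa1 (1.97 over C-LTMR and 1.39 over DN). Scn11a, the Nav1.9 gene, was higher in DP than in C-LTMR (1.12) and than in DN (2.07).

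**Figure D5:**
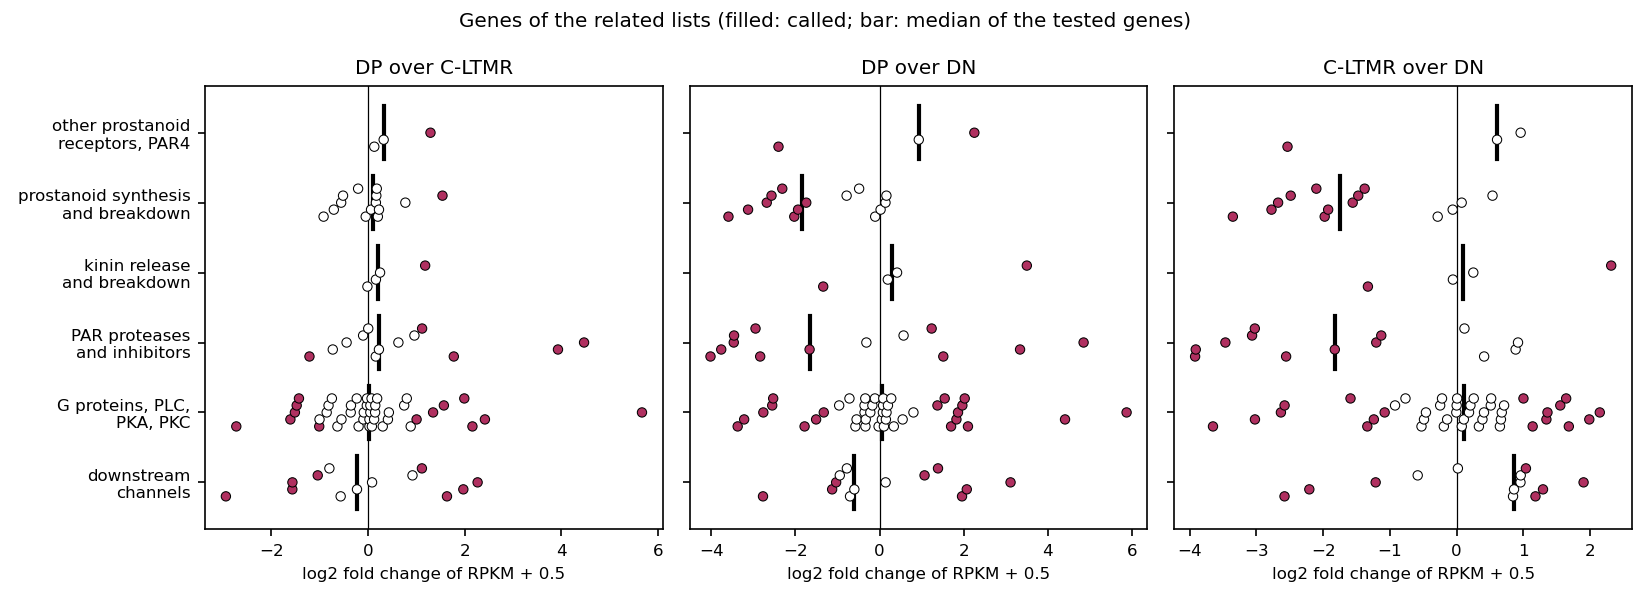
Fitted log2 fold changes of RPKM + 0.5 (x axis) of the tested genes of 6 related lists (rows), in a panel for each comparison, with filled points for called genes and a bar at the list's median. In both comparisons with DN, the prostanoid synthesis genes that were called all lie left of 0, while G protein and kinase genes lie on both sides.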

How the data were processed

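RNA of 6 libraries from 3 sorted subsets was amplified from 50 ng per sample before TruSeq library preparation, per the labels' protocols. The authors deposited RPKM values for 23029 genes, and a second table of 6620 genes holding TMM-normalized counts, that is, a signal adjusted for library composition. CASAVA 1.8.2, edgeR 2.6.2 and build GRCm38 (mm10) are named in the submitters' processing notes, with no role given. The sources used here do not give the aligner settings, annotation or strand use, so reads of genes that overlap on opposite strands cannot be told apart. Some items are not reported here.

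RPKM columns were matched to samples through the labels' library names. Depth was the number of reads at which low values of 1533 single-exon genes best fell on whole reads, with 45.1% to 54.0% within 0.05 of one, too few to recover whole reads, and count models were therefore not used. Read numbers and floors of 3 reads use GENCODE M21 exonic lengths and cover counting error only, since amplified reads carry no molecular identifiers. One model over all 6 libraries was fitted with limma 3.58.1 under R 4.3.3 (trended eBayes, 3 residual degrees of freedom, 3 contrasts). On simulated data, 100 of 100 genes changed by a log2 fold change of 1.5 and 100 of 100 changed by 3 were recovered among 13478 genes in each comparison. Every simulated gene had the same normal spread, an SD of 0.124 on the log2 scale, the median within subsets. Such large changes against that spread check the code only. Real genes differ in spread, so the recovery does not measure power in these libraries. Python 3.11.15, numpy 2.4.6, pandas 2.3.3 and matplotlib 3.10.9 served for the rest.

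The members and lists were chosen with earlier results of these data known. All 10 receptors are named whatever their values. Of each related list, genes were named from the 4 highest on average and from the up to 3 called genes of largest fold change in a comparison. Kng1 was named after its values were seen. A different pseudocount, filter, scaling, fit or table, a replicate block, and each library left out were tried as alternatives. Upstream sequences come from RefSeq.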

Additional observations from a re-analysis of the deposited data

How the results depend on the processing

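Each member's fold change was recomputed under up to 17 alternatives, 345 values in all, of which 333 kept their direction and their side of the call criteria, 2 lost a call, 5 gained one and 5 changed sign. Sign changes were confined to uncalled values of Ptger4 in DP over C-LTMR (0.029 with quantile normalization, 0.0034 rescaled to pan-sensory-neuron genes, 0.074 without C-LTMR replicate 1, and without any 1 library a range of -0.287 to 0.074) and of Ptger2 (0.36 in C-LTMR over DN with quantile normalization, -0.051 in DP over DN when rescaled). The 6620 genes of the TMM-normalized table gave 843 called genes for DP over C-LTMR, 1645 for DP over DN and 1562 for C-LTMR over DN, against 1527, 3776 and 3650 in the RPKM table. It lists 3 members, so 2 were called in DP over DN and 2 in C-LTMR over DN, in place of 4 and 4. With a library left out, members called ranged from 2 to 3 in DP over C-LTMR, from 4 to 5 in DP over DN and from 4 to 4 in C-LTMR over DN, and genes called from 1421 to 1534, from 3615 to 3995 and from 3383 to 3921 in the same order. A subset left with 1 library is then assumed to vary like the others. Rescaling to pan-sensory-neuron genes moved the median log2 fold change of all genes to -0.48 in DP over DN and -0.50 in C-LTMR over DN, against -0.15 and -0.06. The share of calls that were higher became 14.0% and 13.7%, against 23.4% and 26.8%, and with quantile normalization it was 44.3% and 45.3%, with medians of 0.13 and 0.15.

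With the replicate number as a block, 1543, 3784 and 3652 genes were called in the 3 comparisons, and the block changed no call of a member. Differences between replicates 2 and 1 correlated across genes with r = 0.473 between DP and C-LTMR, 0.12 between DP and DN and 0.319 between C-LTMR and DN, but the labels do not say what a number stands for. Depth limits Bdkrb1, Bdkrb2 and F2rl1, which stood on about 10 reads or fewer per library (highest 10.4).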
